A study of Arabidopsis thaliana with 12 samples.

Results

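NdhS, PIFI and CRR21 are nuclear genes of Arabidopsis thaliana that serve the chloroplast NADH dehydrogenase-like (NDH) complex. They were chosen as 3 of the 3439 probes on the array, for a subunit, an associated factor and an RNA editing factor of the complex. These are NdhS (AT4G23890), PIFI (AT3G15840) and CRR21 (AT5G55740), and they are not all probes of such genes. Each gene has 1 probe, and each probe 1 gene. All plants were wild type of ecotype Columbia 0. The 6 water samples had 8 h in water, and the 6 ascorbate samples had 4 h in water before 4 h in 25 mM ascorbate adjusted to pH 5.5. Total RNA was read in 1 channel per array. No pH is given for the water and no mock change of solution is named, so ascorbate, pH, solute and handling cannot be told apart. The labels name plants without a tissue, and in such bulk RNA fewer cells of a type and less RNA per cell cannot be told apart.

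The NDH complex sits in the thylakoid membrane, takes electrons from reduced ferredoxin and passes them to plastoquinone. It works in cyclic electron flow around photosystem I and in chlororespiration, where the plastoquinone pool is reduced without light. Its subunits are encoded partly in the plastid and partly in the nucleus, and many nuclear factors are needed to process the plastid transcripts and assemble the parts. NdhS is a subunit on the stromal side and helps to bind ferredoxin. PIFI is a stromal protein that is not a stable subunit and is needed for the rise of chlorophyll fluorescence after a light is switched off, a common readout of NDH activity. CRR21 is a pentatricopeptide repeat protein required for RNA editing at a site of the plastid ndhD transcript. Ascorbate is an abundant reductant of the chloroplast that is used to remove hydrogen peroxide.

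The fitted differences of the 3 genes were not alike, though no contrast between the genes was tested. NdhS fell 1.97-fold in ascorbate, a call that was lost under other scalings of the arrays. PIFI rose 2.01-fold with a p just under the threshold, a call that was lost in the paired fit. For CRR21 no difference was detected. All 3 probes were above 0 on all 12 arrays, and the highest of their values, 15.6, was well under the top of the scale at 100. Values are given as deposited, in relative units of intensity, or as log2 intensity after quantile normalization, which gives every array the same distribution. Median intensity was 0.252 and 0.259 on ascorbate arrays 1 and 2, against 0.383 to 0.485 on the other 10 arrays. Differences are therefore also given under other scalings of the arrays. In the limma fit over 3266 tested probes, 559 (17.1%) passed an adjusted p of 0.05, 9.74% higher and 7.38% lower in ascorbate. With 2 of 3 members past it, 1 in each direction, the group is too small to be set against that share. The labels do not say whether samples of a group came from separate plants or are repeat readings, so each p reflects only how far these samples scatter, and that scatter may be technical. With a block for the replicate number 24.4% of the tested probes passed.

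For the subunit gene NdhS, the deposited intensities of water samples 1 to 6 were 15.6, 14.4, 9.56, 9.65, 10.6 and 10.2. In ascorbate samples 1 to 6 they were 12.02, 11.05, 5.28, 5.47, 5.83 and 5.95. Samples 1 and 2 were the brightest of each group, and the groups overlapped only through ascorbate samples 1 and 2, while within each number the ascorbate sample was the lower one. Normalized log2 intensity was 3.71 ± 0.30 in water and 2.73 ± 0.30 in ascorbate (SD, n = 6 each), and on this scale the groups did not overlap, as for 9.64% of all tested probes. The difference was -0.98 ± 0.17 (SE) on the log2 scale, with an adjusted p of 0.0032 in limma. With the replicate number as a block the SE was 0.15 and the adjusted p 0.0088 in limma. An exact permutation test over all 924 splits into 6 and 6 gave a two-sided p of 0.00216, the smallest it can give. It ignores the pairing by number. Exact sign flips within the 6 numbers, added after the data were seen, gave 0.0312, again the smallest possible. Here and below the flips count the 6 numbers as independent, as does the block for the replicate number. Consecutive numbers were close, with a consensus correlation of 0.697 over the tested probes, so such p values may be too small. Among the 48 single-gene probes that passed as lower, NdhS was number 18 by size and number 6 by p.

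For PIFI, the NDH-associated factor, the water samples stood at 0.775, 0.800, 0.636, 0.620, 0.360 and 0.303 as deposited. The ascorbate samples stood at 0.515, 0.544, 1.13, 1.06, 1.18 and 1.28. Ascorbate samples 3 to 6 were above every water sample, whereas ascorbate samples 1 and 2 were below water samples 1 to 4. After normalization the level was -1.06 ± 0.71 in water and -0.05 ± 0.38 in ascorbate (SD, n = 6 each), with overlapping groups. The log2 difference was 1.01 ± 0.31 (SE, limma adjusted p 0.048). With the replicate number as a block, which the pairing of the samples by number calls for, the adjusted p was 0.093 in limma, so this call does not hold in the paired fit. The exact permutation test gave a two-sided p of 0.0108 over all splits, which ignores the pairing, and of 0.125 with sign flips within numbers. Of the 72 single-gene probes that passed as higher, PIFI was number 14 by size and had the largest p.

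CRR21, the editing factor gene, varied least as deposited. Its water samples read 0.389, 0.508, 0.479, 0.442, 0.488 and 0.506, and its ascorbate samples 0.447, 0.395, 0.377, 0.473, 0.409 and 0.380. The groups overlapped, with water samples 1 and 4 inside the ascorbate range and ascorbate samples 1, 2, 4 and 5 inside the water range. On the normalized scale CRR21 stood at -1.29 ± 0.20 in water and -1.14 ± 0.31 in ascorbate (SD, n = 6 each). The log2 difference of 0.15 ± 0.15 (SE) did not pass (limma adjusted p 0.51, exact permutation p 0.329 over all splits and 0.531 with sign flips, two-sided). As deposited it was -0.18 (limma adjusted p 0.31, exact permutation p 0.0519 over all splits and 0.156 with sign flips, two-sided). The 95% interval of the normalized difference ran from -0.17 to 0.48 in the fit without a block, so a change of NdhS size lay outside it on this scale. With the replicate number as a block the SE was 0.17 and the adjusted p 0.53 in limma.

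**Figure D1:**
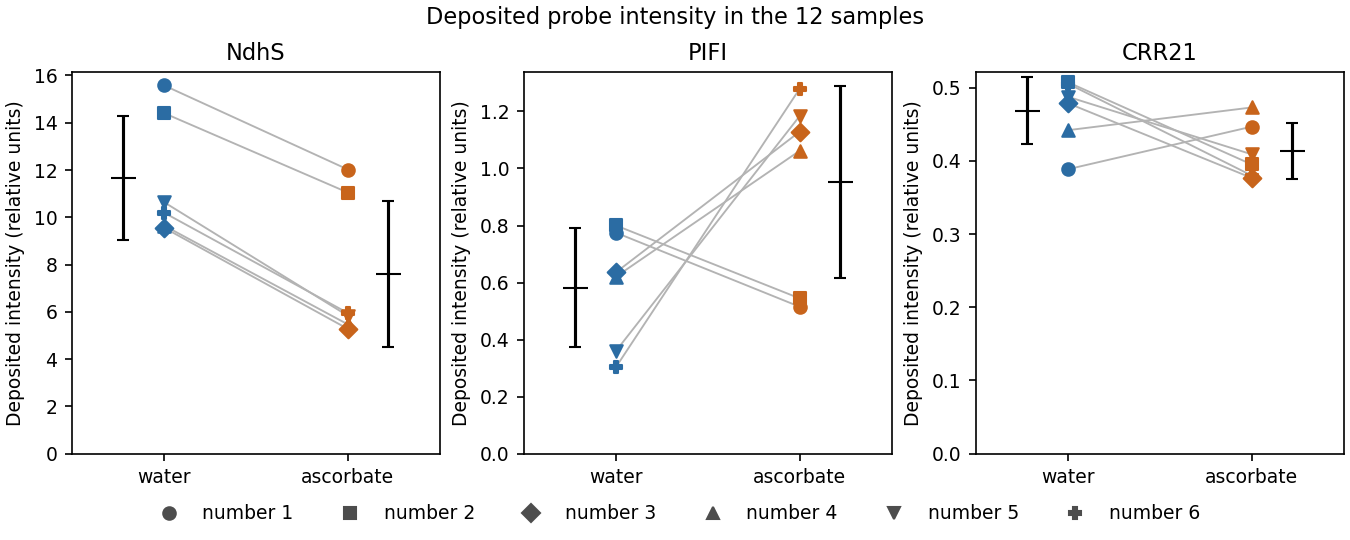
Deposited intensity of the 3 probes (y axis, relative units, from 0) in the water and ascorbate samples; symbols mark the replicate number, grey lines join equal numbers, and black bars give mean and SD of 6 samples. The NdhS lines all fall, the PIFI lines fall for numbers 1 and 2 and rise for 3 to 6, and the CRR21 lines cross.

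Samples with equal numbers in the water and ascorbate groups deviated together across the tested probes, so the differences within a number are given as well. For NdhS the ascorbate sample was lower in 6 of 6 numbers, both as deposited and normalized. As deposited the log2 difference was -0.37 and -0.38 in numbers 1 and 2 and lay between -0.87 and -0.78 in numbers 3 to 6. Normalization widened it to -1.53 and -1.41 in numbers 5 and 6. The range of the 6 normalized differences of NdhS, 0.94 on the log2 scale, was close to the median range of 0.93 over the 2711 probes above 0 on all arrays.

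PIFI differed far more between numbers. As deposited its ascorbate sample was lower in numbers 1 and 2, at -0.59 and -0.56 on the log2 scale, higher in 3 and 4, at 0.83 and 0.78, and highest relative to water in 5 and 6, at 1.72 and 2.08. In linear terms PIFI was 1.51-fold lower in number 1 and 4.23-fold higher in number 6. Normalization moved numbers 1 and 2 to about 0, and numbers 5 and 6 to 1.97 and 2.38. The range of the normalized differences of PIFI was 2.38, at percentile 95.1 among those 2711 probes. Both groups contributed to it, since water samples 5 and 6 were the lowest of their group and ascorbate samples 1 and 2 the lowest of theirs. Without numbers 5 and 6 the fitted log2 difference of PIFI was 0.44 (limma adjusted p 0.25), and without numbers 1 and 2 it was 1.42 (limma adjusted p 0.038).

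CRR21 had no common direction, with ascorbate higher in 3 and lower in 3 numbers after normalization and higher in 2 of 6 as deposited. Its largest normalized difference, 0.95 in number 1, was 0.20 as deposited. Without numbers 1 and 2 its fitted difference was -0.09.

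**Figure D2:**
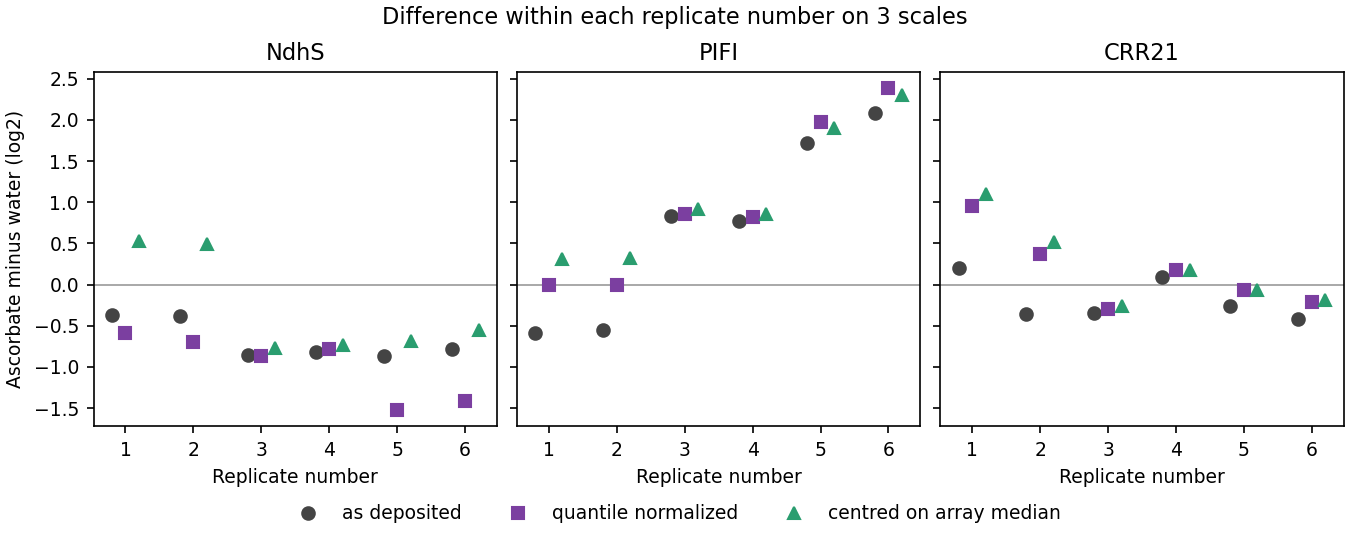
Log2 difference of ascorbate minus water (y axis) within each replicate number (x axis) for the 3 genes, as deposited, after quantile normalization and after centring each array on its median. NdhS lies below 0 in all numbers except 1 and 2 after centring, PIFI climbs from numbers 1 and 2 to 5 and 6, and CRR21 lies on both sides of 0.

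NdhS and PIFI also came in close couples of consecutive numbers, 1 with 2, 3 with 4 and 5 with 6. Within such a couple the deposited NdhS values of a group differed by at most 0.12 on the log2 scale, while the means of the couples spanned 0.64 in water and 1.10 in ascorbate. For PIFI the largest gap within a couple was 0.25 in water and 0.11 in ascorbate, against spans of 1.25 and 1.22. CRR21 behaved the other way, with gaps within couples of up to 0.39 in water and 0.33 in ascorbate and spans of 0.16 and 0.10. With consecutive numbers averaged, which leaves 3 against 3, neither NdhS (limma adjusted p 0.20) nor PIFI (limma adjusted p 0.37) passed, and 1 probe of all tested did. That fit ignores the pairing of water with ascorbate. Before adjustment its limma p was 0.010 for NdhS and 0.075 for PIFI. A random block for consecutive numbers gave an adjusted p of 0.015 for NdhS and 0.12 for PIFI in limma.

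The size of the NdhS difference depended on the scaling of the arrays. As deposited it was -0.68 (limma adjusted p 0.088, exact permutation p 0.0325 over all splits and 0.0312 with sign flips, two-sided), where the median of all tested probes was -0.35. With each array centred on its median it was -0.29 (limma adjusted p 0.61, exact permutation p 0.457 and 0.25), since the ascorbate sample was then higher in numbers 1 and 2, by 0.52 and 0.49, and lower in 3 to 6. NdhS is a bright probe, and the upper end of ascorbate arrays 1 and 2 did not share the low median of these arrays. Their 99th percentile was 58.7 and 57.5 times the median. Water arrays 5 and 6 were the lowest, at 17.7 and 17.5 times, and the remaining arrays lay at 22.9 to 28.5 times. In numbers 5 and 6 normalization widened the NdhS difference from -0.87 and -0.78 to -1.53 and -1.41. Set against the 99th percentile of its own array, NdhS lay at 0.838 to 1.29 in water and at 0.529 to 0.813 in ascorbate, ranges that do not overlap. NdhS itself lay near that percentile, so this scaling is close to quantile normalization and is no separate support. Against the 95th percentile the ranges did overlap, at 4.42 to 6.23 in water and 2.38 to 4.797 in ascorbate. Without ascorbate samples 1 and 2 the fitted difference of NdhS was -1.11 (limma adjusted p 0.0022). Without numbers 5 and 6 in both groups it was -0.78 (limma adjusted p 0.066). Why the NdhS call depended on the scaling was not tested. The log2 difference of PIFI was 0.71 as deposited (limma adjusted p 0.16) and 1.10 after centring (limma adjusted p 0.020). Its exact permutation p over all splits was 0.0671 as deposited and 0.00216 after centring, and with sign flips 0.188 and 0.0312.

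**Figure D3:**
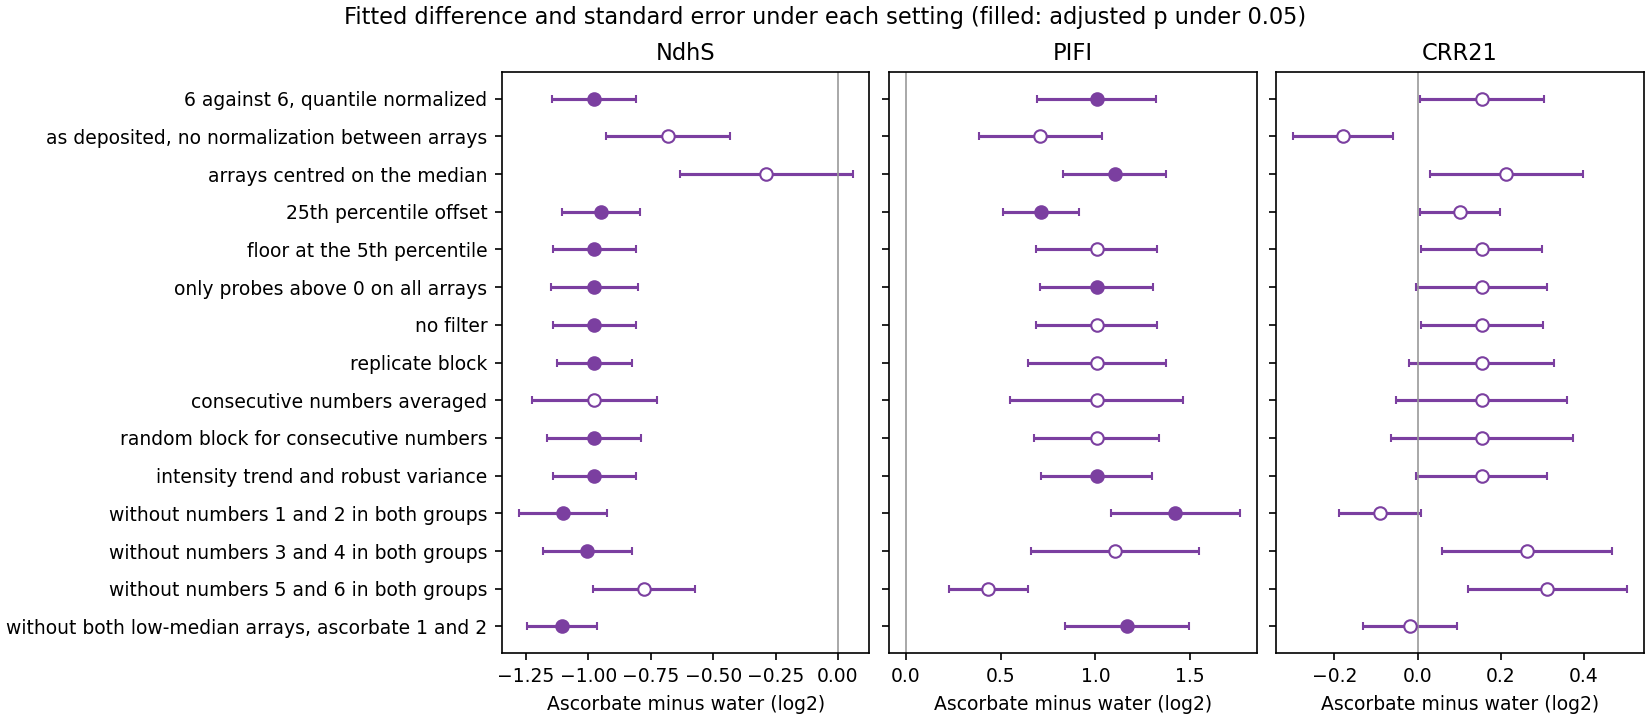
Fitted log2 difference of ascorbate minus water (x axis, bars are standard errors) for the 3 genes under 15 settings (y axis); filled points have an adjusted p under 0.05 in limma. NdhS stays below 0 and PIFI above 0 in every setting drawn, filled in 11 and 7 of them, and CRR21 is on both sides of 0 and never filled.

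A ratio of 2 deposited values on the same array is not altered by a constant factor per array, such as centring, though it is by quantile normalization. It is used here only to compare arrays, since different probes have no common scale. NdhS over PIFI was 20.1, 18.0, 15.0, 15.6, 29.6 and 33.7 in water samples 1 to 6 and 23.3, 20.3, 4.67, 5.15, 4.93 and 4.65 in ascorbate samples 1 to 6. In numbers 3 to 6 the ratio was thus at least 3-fold lower in ascorbate, while in numbers 1 and 2 it was slightly higher. After quantile normalization the ratio was lower in ascorbate in numbers 1 and 2 too, since the log2 differences there were -0.58 and -0.69 for NdhS and about 0 for PIFI. NdhS over CRR21 was lower in ascorbate in 6 of 6 numbers, with 20.0 to 40.1 in water and 11.6 to 28.0 in ascorbate, but in number 2 only from 28.4 to 28.0. PIFI over CRR21 ran from 0.599 to 1.99 in water and from 1.15 to 3.37 in ascorbate, and was lower in ascorbate in numbers 1 and 2 and higher in 3 to 6.

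**Figure D4:**
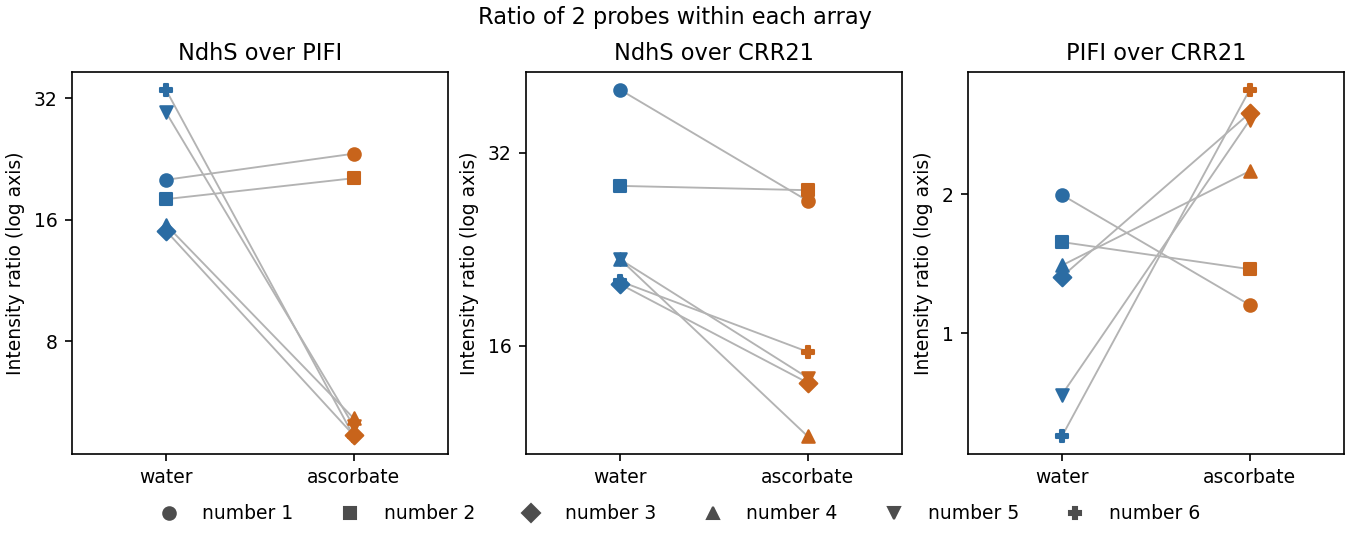
Ratio of the deposited intensities of 2 probes on the same array (y axis, log axis) for the 3 couples of genes in water and ascorbate; symbols mark the replicate number and lines join equal numbers. NdhS over PIFI drops to between 4.65 and 5.15 in ascorbate numbers 3 to 6 and stays at 20.3 or above in numbers 1 and 2.

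Little else of the NDH pathway could be compared. Of 52 loci in lists of NDH subunits, plastid-encoded subunits, assembly factors and RNA factors, 5 had a tested single-gene probe, the 3 members, Cpn60beta4 and OTP85. Of the 4 with values above 0 on all arrays, 1 rose (PIFI, not in the paired fit), 1 fell (NdhS) and 2 did not pass, where 17.1% of all tested probes passed. The median log2 difference of these 4, which include the members and go both ways, was 0.055, against 0.00097 over all tested probes. Cpn60beta4, a chaperonin subunit needed to fold the plastid-encoded NdhH, had a log2 difference of -0.04 ± 0.15 (SE, limma adjusted p 0.89). It read 0.406 to 0.519 in water as deposited, but 0.195 and 0.177 in ascorbate samples 1 and 2 and 0.377 to 0.544 in ascorbate samples 3 to 6. OTP85, an editing factor for ndhD like CRR21, was listed at 0 on 11 of 12 arrays and gave no comparison. The subunit NdhN and the factor CRR41 had single-gene probes at 0 on all 12 arrays, which were not tested. Of the 52 loci, 1 had only a probe shared with other genes. Among 20 genes of photosystem I, its antenna and its ferredoxin partners, PSAN, a lumenal subunit of photosystem I, was the 1 tested. PSAN stood at 0.82 ± 0.21 log2 intensity in water and 0.81 ± 0.22 in ascorbate (SD, n = 6 each), with a difference of -0.01 ± 0.12 (SE, limma adjusted p 0.98). No tested single-gene probe covered the 4 loci of the PGR5 route and plastid terminal oxidase, which also act on the plastoquinone pool, the 15 further factors of plastid RNA editing or the 4 markers of senescence and darkness.

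The single-gene probes with the most similar course over the 12 samples were sought among 548 others above 0 on all arrays, by Pearson correlation of normalized log2 intensity. All these values share their arrays and their normalization, and the correlations are a description. They run over both groups, so a probe chosen this way tends to share the member's group difference. Its direction and call are therefore no separate support. Of all tested probes 7.38% passed as lower and 9.74% as higher. Closest to NdhS were AT4G18180, AT4G34310 and AT4G08630, at 0.935, 0.922 and 0.907. Their log2 differences were -0.87, -0.90 and -0.996, each lower in 6 of 6 numbers and each past the threshold in limma, at adjusted p of 0.010, 0.0077 and 0.0029. PIFI was followed most closely by AT1G73430, at 0.988, whose log2 difference of 0.31 did not pass (limma adjusted p 0.083). AT3G47100 and IYO, the gene of the RNA polymerase II-associated protein MINIYO, came next at 0.933 and 0.895, with differences of 0.86 and 0.61 that passed (limma adjusted p 0.0082 and 0.035). For CRR21 the nearest were AT1G72890, AT1G06510 and AT5G49590, at 0.910, 0.859 and 0.826, and none of them passed.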

How the data were processed

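The authors deposited 1 linear intensity per probe and array. How it was scanned, background-corrected and scaled is not stated in the labels. In the deposited intensities 11.5% to 14.2% of probes per array were at exactly 0. The number of arrays limits the precision. Values at or under percentile 1 of the positive values of an array were raised to it, log2 was taken, and arrays were quantile normalized. Ascorbate was compared with water using limma 3.58.1 in R 4.3.3 (lmFit, eBayes, two-sided, Benjamini-Hochberg over 3266 probes), without 173 probes at 0 on all arrays. Gene names came from platform annotation, which gave 1 gene for 692 probes, several for 870 and none for 1877. Loci were matched through RefSeq TAIR10.1. No array build is named, so no coordinates are given.

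Members, lists and tests were chosen with earlier results of these data known. Apart from the untested NdhN and CRR41, the named genes are the 3 members, each list locus with a tested single-gene probe, and the 3 most correlated single-gene probes per member. Same-numbered water and ascorbate samples correlated at 0.349 to 0.563 in their deviations from group means, above a limit of 0.1 in every number, so the numbers in the labels pair the samples. The main fit has no block. Alternatives changed the scaling, low values, filter, block, test and samples. In data simulated from the means and SDs of the 3266 probes, the ascorbate against water fit recovered 62.4% of changes of 1 on the log2 scale and 10.5% of changes of 0.5. The simulated samples were independent, without the pairing by number or the closeness of consecutive numbers. These shares therefore hold for independent samples only.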

Additional observations from a re-analysis of the deposited data

Results flagged for a closer look

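Among 36 groups of 6 values of the named genes and ratios, 1 held a sample far from the others. Chance gives about 1.8 if samples are independent, which close consecutive numbers are not. The rule seeks 1 far value, so 2 samples that deviate together can hide each other. OTP85 stood at -4.09 log2 intensity in ascorbate sample 2, against the common floor of -5.92 in the other 5 ascorbate samples, which were listed at 0. Its deposited value there was 0.0198. With the other 5 tied at the floor, any value above it would have been flagged.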

How the results depend on the processing

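NdhS kept its direction in all 33 alternatives and its call in 29. Most alternatives kept the quantile normalization, so the tally is not a count of separate checks. The call was lost in each setting that replaced it, as deposited (-0.68) and after centring (-0.29). It was also lost with consecutive numbers averaged (-0.98) and without numbers 5 and 6 (-0.78, limma adjusted p 0.066). With single samples left out NdhS ranged from -1.05 to -0.91 and passed 12 of 12 times. For NdhS and PIFI, leaving out 1 sample keeps its close consecutive number in the fit, so such ranges say little about whole couples. PIFI kept its direction in all 33 but its call in 8. It was lost as deposited (0.71). It was also lost at an unchanged 1.01 with the floor at percentile 5, without a filter, with the replicate block (limma adjusted p 0.093), with consecutive numbers averaged, with their random block and by the exact rank-sum test (adjusted p 0.070). Leaving out numbers 1 to 6 in turn gave 1.18, 1.18, 1.04, 1.05, 0.83 and 0.74, leaving out 3 and 4 gave 1.11 and leaving out 5 and 6 gave 0.44, all without the call. With single samples left out PIFI ranged from 0.80 to 1.12 and passed 2 of 12 times, without water sample 1 or 2. The cause of these losses was not tested. CRR21 never passed. Its direction turned as deposited (-0.18), without number 1 (-0.0047), without numbers 1 and 2 (-0.090) and without ascorbate samples 1 and 2 (-0.018), the last chosen after seeing the data. With single samples left out CRR21 ranged from 0.07 to 0.22. The count of 559 passing probes fell to 1 with consecutive numbers averaged, 148 with their random block, 314 and 329 without number 5 or 6, and 261 without both. It ranged from 396 to 584 with single samples left out, and the replicate block gave 796, 500 of them shared. The block changed the call of PIFI and of no other member. The share of passing probes that were higher was 56.9%, against 21.7% as deposited and 72.7% after centring.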
